A study of Arabidopsis thaliana with 9 samples.

Results

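The IRON MAN (IMA) peptide genes IMA1 (AT1G47400), IMA2 (AT1G47395) and IMA3 (AT2G30766) were examined in Arabidopsis shoots, together with the small loci AT1G07367 and AT1G07373, which are annotated as long noncoding RNAs. These 5 loci were taken from the RNA-seq tables by their locus identifiers, and they held 6 transcripts, out of 34262 loci and 55442 transcripts in all. The pair of RNA loci was selected on their measured difference between -Fe and the other conditions, and the IMA genes were listed with that pattern known. A higher level in -Fe is therefore given as a description of the members and not as a finding.

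Wild type Col-0 plants supplied 3 shoot samples per condition and 9 samples in all. Every plant first spent 14 days on MS medium with iron. The -Fe plants then spent 3 days and another 24 hours without iron. In Fe resupply, iron was absent for these 3 days and present again for the last 24 hours. The +Fe plants were moved to fresh medium at the same times and had iron throughout. The deposited tables, 1 for each pair of conditions, were used only for the average log2 CPM, which are counts scaled to a common library size, that the authors give for the libraries of a pair. The level of a transcript in each condition was solved from its 3 averages, after the lowest value of each table (1.78, 1.77 and 1.75 CPM) had been taken off. Values per sample were not used here, so no level has a standard deviation and no difference was tested. What each level has instead is its range over 3 ways of scaling the tables (as deposited, brought to 1 scale, and with estimated weights of the conditions). The first of them is the main value, and the last was added after the data were seen. A ratio was called raised or lowered when it was at least 2-fold after 1 CPM was added to both levels. Transcripts with a mean level of at least 1 CPM, 24524 of 55442, entered the counts. All 6 member transcripts were among them, AT1G07367 only through its level in -Fe.

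The lowest value of a table is what edgeR gives to a transcript without counts, and with its default prior count of 2 it gives a mean library total of 1.12e+06 to 1.14e+06. If edgeR was given read counts, which the sources used here do not say, a level of 1 CPM stands for about 1 count in each library. Among levels just above the lowest value (1144, 1123 and 1131 transcripts), the median was 0.0716, 0.0745 and 0.0725 CPM in the 3 tables. That is what 1 count gives when 12.4, 11.9 and 12.1 libraries are averaged. The upper limit set on these levels lay below what 1 count would give over 6 libraries, so 6 could not have come out. The labels give 6 samples to a pair of conditions, and the number of libraries behind an average was not tested. The 5 shoot markers examined, among them RBCS1A and RCA, summed to 34090 CPM in -Fe, 32176 CPM in Fe resupply and 30732 CPM in +Fe. Of 8 root markers, 6 stayed under 1 CPM in every condition, and EXPA7, RHD6, RSL4, MYB36 and CASP1 were listed at 0 throughout. The root markers summed to 7.07 CPM in -Fe, 1.13 CPM in Fe resupply and 1.71 CPM in +Fe, so they were highest in -Fe, as the members were. The root markers above 1 CPM in -Fe were FRO2, at 2.72 CPM, and IRT1, at 2.12 CPM, which are themselves genes of the iron deficiency response of roots. Their part in the members' levels was not tested.

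IMA genes encode very short peptides that act in iron deficiency signalling and that end in a conserved stretch rich in aspartate. This stretch binds BRUTUS (BTS) and related ubiquitin E3 ligases, which otherwise mark bHLH transcription factors of subgroup IVc for degradation. The IVc factors in turn switch on further bHLH factors and the genes of iron uptake and transport.

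The reading frames are shown because their ends are what the IMA family has in common and what the RNA loci can be compared with. Coordinates and bases are those of the RefSeq annotation of assembly TAIR10.1. The deposited tables hold no coordinates, and the authors mapped their reads to TAIR10. IMA1 is coded by 153 bases without an intron at chr1:17385818-17385970 on the plus strand, and IMA2 by 153 bases at chr1:17383117-17383269 on the plus strand. The IMA3 frame holds 144 bases at chr2:13108068-13108211 on the plus strand. In AT1G07367, a frame of 171 bases was found at chr1:17389178-17389348 on the plus strand, and it runs through 7 bases that are annotated as an intron. In AT1G07373, a frame of 171 bases was found at chr1:17392644-17392814 on the plus strand, which is opposite to the annotated strand of that locus. Capitals mark the last 17 codons and the stop codon, a length chosen after the sequences were seen.
IMA1: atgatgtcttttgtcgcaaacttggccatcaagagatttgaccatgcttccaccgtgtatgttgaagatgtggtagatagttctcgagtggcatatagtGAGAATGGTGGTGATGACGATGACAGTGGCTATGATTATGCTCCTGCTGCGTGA
IMA2: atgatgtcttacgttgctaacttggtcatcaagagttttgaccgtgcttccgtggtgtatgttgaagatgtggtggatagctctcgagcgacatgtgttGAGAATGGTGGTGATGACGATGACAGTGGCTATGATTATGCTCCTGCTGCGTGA
IMA3: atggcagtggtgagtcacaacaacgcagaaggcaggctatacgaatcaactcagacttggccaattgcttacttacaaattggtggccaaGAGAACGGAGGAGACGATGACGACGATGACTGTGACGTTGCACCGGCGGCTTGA
AT1G07367: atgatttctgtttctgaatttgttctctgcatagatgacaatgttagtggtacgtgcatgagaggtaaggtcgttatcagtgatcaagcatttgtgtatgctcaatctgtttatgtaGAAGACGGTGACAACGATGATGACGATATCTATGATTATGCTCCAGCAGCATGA
AT1G07373: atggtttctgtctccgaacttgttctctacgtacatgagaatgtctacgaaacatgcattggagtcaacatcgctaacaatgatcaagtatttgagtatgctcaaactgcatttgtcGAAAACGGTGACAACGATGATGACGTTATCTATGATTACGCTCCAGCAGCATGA

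All 5 frames ended in the same 4 residues, alanine, proline, alanine and alanine. The last 17 residues held 6 acidic residues in IMA1, 6 in IMA2, 8 in IMA3, 8 in AT1G07367 and 6 in AT1G07373. IMA1 and IMA2 were the closest pair, with 82% of peptide positions identical and the same base at all 54 positions in capitals. The frames of AT1G07367 and AT1G07373 shared 58.9% of peptide positions and 15 of the last 17 residues. Outside these pairs the likeness lay in the end of the frame. IMA1 and IMA3 shared 34% of positions over their whole length, but 13 of the last 17. IMA1 shared 33.3% of positions with AT1G07367, including 12 of the last 17, and 33.3% with AT1G07373, including 13 of the last 17. The ending itself was rare in the annotation. It occurred in 4 of 27444 protein-coding loci (0.0146%), which were the 3 IMA genes and AT3G07820, a locus with 0 acidic residues among its last 17. Among 4288 noncoding RNA loci searched on both strands for frames of at least 40 codons, 2 had it (0.0466%), and these were AT1G07367 and AT1G07373. The ending was looked for because the IMA genes have it, and a frame does not show that a peptide is made.

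Of the 5 loci, 4 lie together on chromosome 1. IMA2 (chr1:17382998-17383830), IMA1 (chr1:17385707-17386485) and AT1G07367 (chr1:17388989-17389500) are on the plus strand, and AT1G07373 (chr1:17392374-17393026) is annotated on the minus strand. The 4 loci span 10029 bases, with 1876, 2503 and 2873 bases between neighbours. IMA3 (chr2:13107583-13110480) stands apart on chromosome 2, on the plus strand. It overlaps the minus-strand genes AT2G30760 by 639 bases and AT2G30770 by 572 bases.

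The 250 bases before the annotated start are shown for 3 members of the cluster because they hold a run of identical bases. The longest run common to IMA1, IMA2 and AT1G07367 was 9 bases, set in capitals, and it began 134, 102 and 25 bases before the start. Each window is on the plus strand of TAIR10.1, at chr1:17385457-17385706 for IMA1, chr1:17382748-17382997 for IMA2 and chr1:17388739-17388988 for AT1G07367.
IMA1: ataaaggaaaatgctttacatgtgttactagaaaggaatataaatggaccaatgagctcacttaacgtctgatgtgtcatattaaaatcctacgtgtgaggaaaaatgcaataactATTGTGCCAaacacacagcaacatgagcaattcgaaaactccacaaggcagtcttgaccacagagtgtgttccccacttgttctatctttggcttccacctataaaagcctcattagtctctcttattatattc
IMA2: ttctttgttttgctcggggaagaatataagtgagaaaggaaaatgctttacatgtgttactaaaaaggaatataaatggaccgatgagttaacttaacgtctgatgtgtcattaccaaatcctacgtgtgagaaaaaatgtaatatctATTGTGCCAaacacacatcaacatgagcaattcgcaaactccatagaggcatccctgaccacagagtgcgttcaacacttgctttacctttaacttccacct
AT1G07367: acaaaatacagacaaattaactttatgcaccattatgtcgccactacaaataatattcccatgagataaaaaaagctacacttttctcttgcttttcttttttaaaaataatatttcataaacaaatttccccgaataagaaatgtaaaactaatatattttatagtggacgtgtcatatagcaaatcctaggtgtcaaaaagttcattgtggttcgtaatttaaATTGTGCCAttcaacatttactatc

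The run ATTGTGCCA occurred on either strand in 73 of 37897 windows of all annotated genes (0.193%), each window reaching from 250 bases before to 50 bases after the start. It was picked after the sequences were seen, and IMA3 and AT1G07373 lacked it. Such a share depends on the length of a run, and other runs of this length were not counted, so the share does not set this run apart. The windows of IMA1 and IMA2 also share longer stretches, so their matches are not separate cases. Whether a run of this length common to the windows exceeds chance was not tested. The E-box CANNTG, which bHLH factors bind, was matched in 4 of the 5 member windows and in 62.9% of all windows. CACGTG, the G-box and a special case of CANNTG, was matched in 0 member windows, against 6.46% of all windows. CATGCA, the core of the RY motif, was matched in the window of IMA3 alone and in 10.4% of all windows. All motifs were searched on both strands. The matches of CATGCA began 111 and 109 bases before the start of IMA3, where they overlap a CANNTG match that began at 107 bases.

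IMA1 and IMA2 were by far highest in -Fe. The authors' average log2 CPM of IMA1 was 5.13 over -Fe and +Fe, 5.07 over -Fe and Fe resupply, and 2.68 over Fe resupply and +Fe. Solved from these, IMA1 stood at 60.5 CPM in -Fe (60.2 to 61.1 over the 3 scalings), 3.27 CPM in Fe resupply (3.27 to 3.90) and 6.03 CPM in +Fe (5.47 to 6.03). Its -Fe level was thus 10.03 times that in +Fe (10.03 to 11.1) and 18.5 times that in Fe resupply (15.4 to 18.5). IMA1 held 86.7% of its summed level in -Fe. In whole shoots, more cells with a transcript and more of it per cell cannot be told apart.

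For IMA2 the averages were 6.49 over -Fe and +Fe, 6.40 over -Fe and Fe resupply, and 3.97 over Fe resupply and +Fe. IMA2 stood at 157 CPM in -Fe (156 to 158), 8.30 CPM in Fe resupply (8.30 to 9.98) and 19.5 CPM in +Fe (18.0 to 19.5). The -Fe level was 8.03 times that in +Fe (8.03 to 8.68) and 18.9 times that in Fe resupply (15.6 to 18.9). Of its summed level, IMA2 held 84.9% in -Fe, close to the share of IMA1. The IMA1 and IMA2 transcripts share an identical run of 59 bases, the longest found between 2 members, and how the authors' counting assigned reads from it is not given in the sources used here.

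IMA3 had the smallest share of its level in -Fe among the members, 75.0% for AT2G30766.1 and 65.2% for AT2G30766.2, and both of its annotated transcripts were measured. Isoform AT2G30766.1 had averages of 7.28 over -Fe and +Fe, 7.17 over -Fe and Fe resupply, and 5.47 over Fe resupply and +Fe. Its level was 254 CPM in -Fe (253 to 257), 31.0 CPM in Fe resupply (31.0 to 34.1) and 53.9 CPM in +Fe (51.5 to 53.9). The ratio of -Fe was 4.72 over +Fe (4.72 to 4.93) and 8.19 over Fe resupply (7.41 to 8.19), both lower than those of IMA1 and IMA2.

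Isoform AT2G30766.2, which has 3 exons and 1050 bases against 2 exons and 1995 bases in AT2G30766.1, moved less. Its averages were 5.25 over -Fe and +Fe, 5.12 over -Fe and Fe resupply, and 4.03 over Fe resupply and +Fe. They gave 54.8 CPM in -Fe (54.4 to 55.2), 11.3 CPM in Fe resupply (11.3 to 12.1) and 17.9 CPM in +Fe (17.4 to 17.9). The ratio of -Fe was 3.06 over +Fe (3.06 to 3.14) and 4.83 over Fe resupply (4.49 to 4.83). AT2G30766.2 therefore made up 17.7% of the IMA3 sum in -Fe, 26.8% in Fe resupply and 24.9% in +Fe, where the sums were 309, 42.4 and 71.8 CPM. These shares are of CPM without correction for length, and how reads common to both isoforms were divided between them is the estimate of the authors' pipeline. The minus-strand genes that overlap IMA3 were near 0, with AT2G30760 solved at 0.402 CPM and AT2G30770 (CYP71A13) at 0.162 CPM in -Fe, and both at the lowest value of the table of Fe resupply and +Fe.

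The RNA loci had larger shares of their level in -Fe than the IMA genes, but they were selected on that difference and were near 0 elsewhere. With 5 CPM added to both levels, the log2 ratio of -Fe over +Fe was 2.28 for AT1G07367 and 2.71 for AT1G07373. It was then 2.57 for IMA1, 2.72 for IMA2, 2.14 for AT2G30766.1 and 1.38 for AT2G30766.2, so the RNA loci no longer came first. AT1G07367 had averages of 3.58 over -Fe and +Fe and 3.55 over -Fe and Fe resupply, and it was at the lowest value of the table of Fe resupply and +Fe. Its level was 20.2 CPM in -Fe (20.1 to 20.4), and it was listed at 0 in Fe resupply and in +Fe, so no fold is given. AT1G07373 held 94.2% of its summed level in -Fe. Its averages were 4.40 over -Fe and +Fe, 4.38 over -Fe and Fe resupply, and 1.54 over Fe resupply and +Fe. Its level was 37.2 CPM in -Fe (37.1 to 37.7), 0.836 CPM in Fe resupply (0.836 to 1.20) and 1.46 CPM in +Fe (1.12 to 1.46). The ratio of -Fe was 25.5 over +Fe (25.5 to 33.2) and 44.6 over Fe resupply (31.0 to 44.6). If read counts were used, the levels outside -Fe amount to about 1 count per library. Whether reads were counted by strand is not given in the sources used here, so the strand from which the AT1G07373 reads came cannot be told apart, and its frame lies opposite to the annotation.

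**Figure D1:**
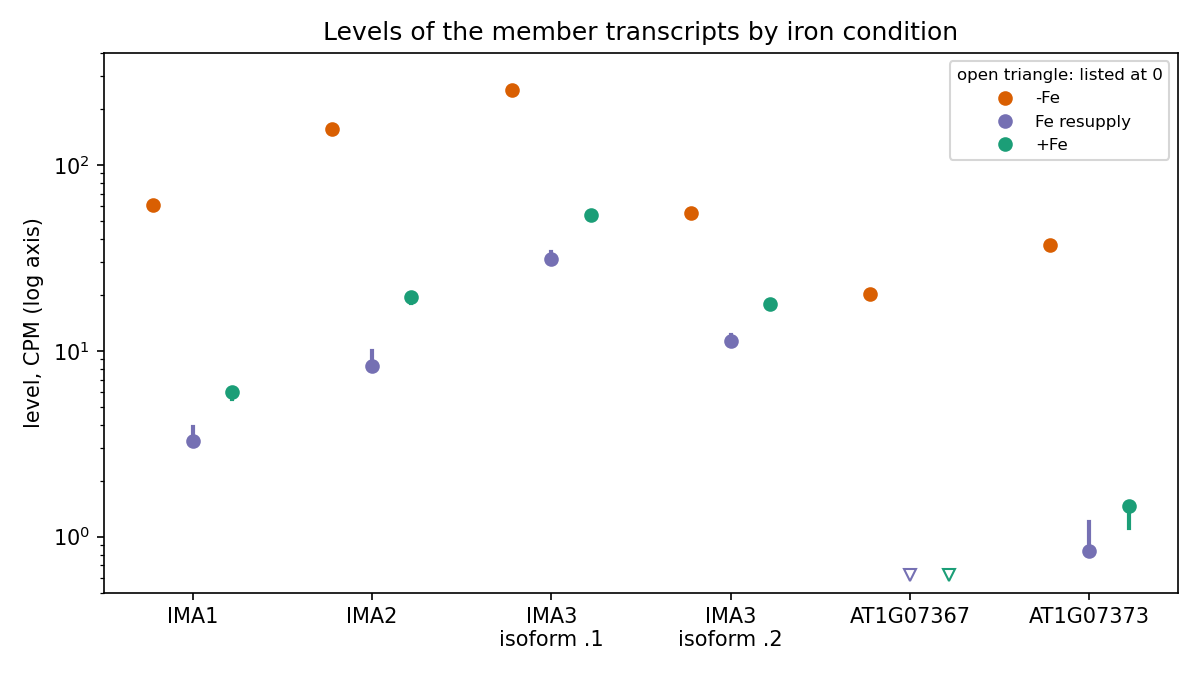
Level of each member transcript in -Fe, Fe resupply and +Fe, in CPM on a log axis. Points are the main values, vertical lines the range over the 3 scalings (not a replicate error), and open triangles the conditions in which AT1G07367 was listed at 0. Every -Fe point lies above the other points of its transcript, and the gap is narrowest for isoform 2 of IMA3, at 54.8, 11.3 and 17.9 CPM in -Fe, Fe resupply and +Fe.

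All 6 member transcripts were raised in -Fe over +Fe, beside 7.51% of all 24524 transcripts that entered the count, and all 6 were raised in -Fe over Fe resupply, beside 9.23%. Both comparisons share the -Fe samples, and the members had been chosen for this direction. AT1G07367, listed at 0 elsewhere, entered both counts and the medians below only through its -Fe level. Its log2 ratio of -Fe over +Fe ranged from 2.3 with 5 CPM added to 4.9 with 0.5 CPM added. On the log2 scale of CPM + 1, the members' median ratio was 3.04 in -Fe over +Fe and 3.97 in -Fe over Fe resupply, where the medians of all transcripts were 0.0026 and 0.065. The ratio of -Fe over +Fe was 3.96 for AT1G07373, 3.13 for IMA1, 2.94 for IMA2, 2.22 for AT2G30766.1 and 1.56 for AT2G30766.2. At 4-fold in place of 2-fold, 5 of the 6 were past the limit in -Fe over +Fe, beside 2.48% of all transcripts, and AT2G30766.2 was the one that did not.

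Few of the annotated neighbours of the chromosome 1 members had a level to compare. AT1G47410.1, the next gene after AT1G07373, stood at 3.88 CPM in -Fe, 3.53 CPM in Fe resupply and 3.86 CPM in +Fe. AT1G47390, the gene before IMA2, was at 0.275 CPM in +Fe and close to 0 in the other conditions. AT1G07357, the microRNA locus MIR5664 after IMA1, was listed at 0 in all conditions. AT1G47405 and AT1G09505, which lie between AT1G07367 and AT1G07373, had no listed transcript. AT1G47410.1 was thus the only neighbour in the cluster that passed the filter on low values.

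**Figure D2:**
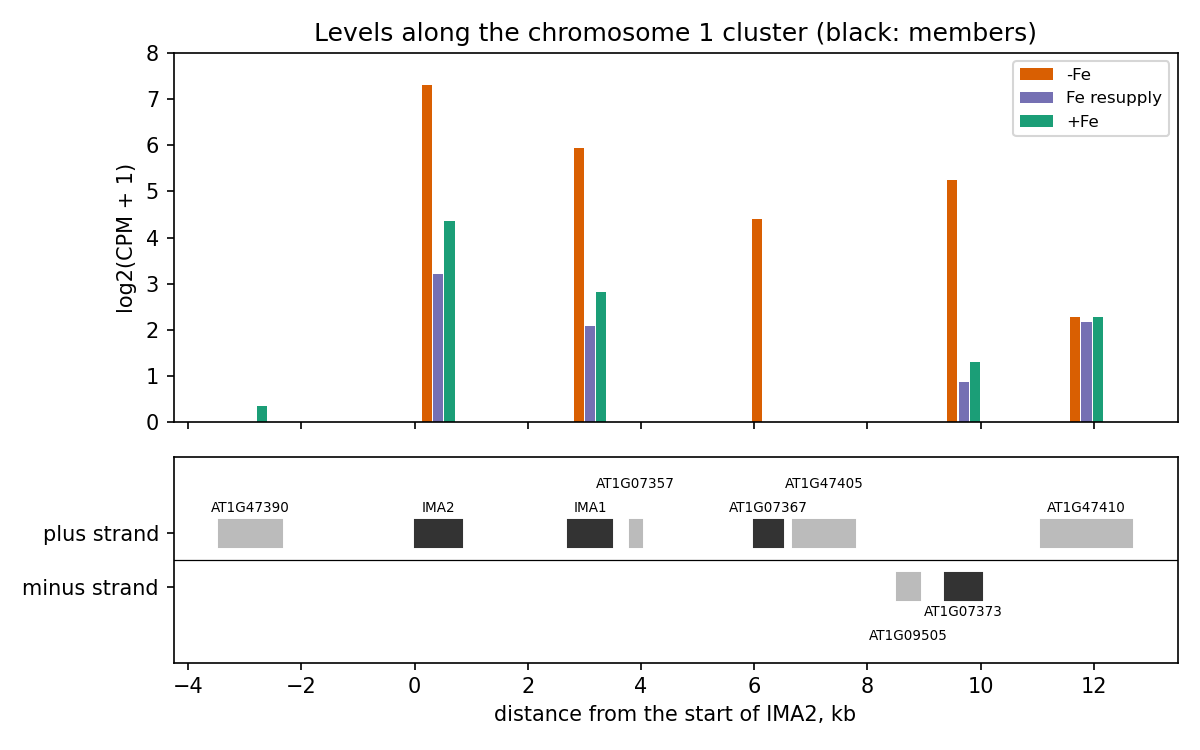
The 4 chromosome 1 members and their annotated neighbours. Bars above give the main level of each locus in -Fe, Fe resupply and +Fe as log2(CPM + 1), and boxes below give position and strand as distance in kb from the start of IMA2, with members in black and other genes in grey. IMA2, IMA1, AT1G07367 and AT1G07373 show tall -Fe bars, while the bars of AT1G47410 are level at 3.88, 3.53 and 3.86 CPM. AT1G47405 and AT1G09505 have boxes without bars because they had no listed transcript.

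After 24 hours of Fe resupply, the IMA transcripts were below their +Fe levels. IMA1 was at 54.2% of its +Fe level (54.2% to 71.3% over the 3 scalings), IMA2 at 42.6% (42.6% to 55.4%), AT2G30766.1 at 57.6% (57.6% to 66.2%) and AT2G30766.2 at 63.4% (63.4% to 69.6%). All 4 stayed below +Fe under the 3 scalings. For each of them the main value was the lowest of the 3 percentages. The scaling as deposited gave each its lowest Fe resupply level and its highest +Fe level. AT1G07373 was at 57.2% as deposited, but at up to 107% under the other scalings, so its direction turned with the scaling. AT1G07367 was listed at 0 in both conditions.

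Against the rest of the transcripts these differences were moderate. IMA2 alone was lowered at least 2-fold in Fe resupply over +Fe, beside 8.64% of all transcripts, and 0 members were raised, beside 6.81%. The log2 ratio of IMA2 was -1.14 as deposited, -0.79 with the tables on 1 scale and -0.84 with estimated weights, so this call was lost under both other scalings. At a limit of 1.5-fold, chosen after the data were seen, 4 members were lower in Fe resupply as deposited, beside 16.8% of all transcripts. The count was 1, IMA2, with the tables on 1 scale, beside 15.4%, and 2, IMA2 and AT2G30766.1, with estimated weights, beside 16.5%. Among all transcripts 56.3% were lower in Fe resupply by any amount as deposited, and 51.1% were lower with the tables on 1 scale. The log2 ratios of Fe resupply over +Fe were -0.72 for IMA1, -0.78 for AT2G30766.1 and -0.62 for AT2G30766.2, and the median of all transcripts was -0.060. Replicate spread was not part of these values, so whether the IMA transcripts differ between Fe resupply and +Fe beyond it was not tested.

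**Figure D3:**
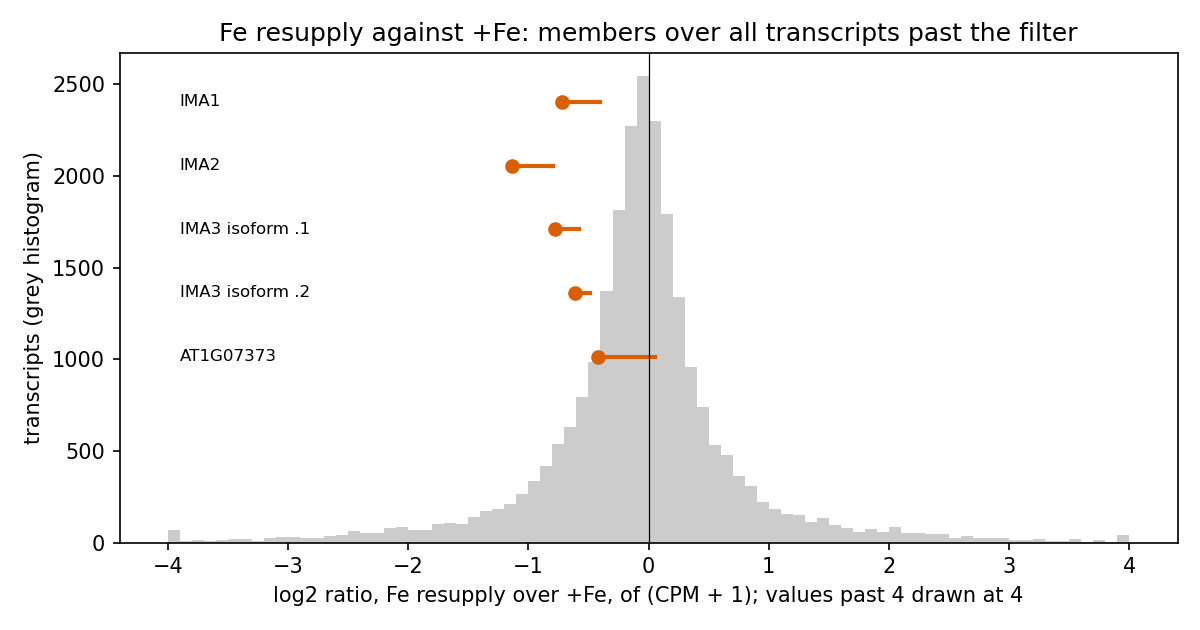
Ratio of Fe resupply over +Fe on the log2 scale of CPM + 1. The grey histogram counts all 24524 transcripts past the filter on low values, points mark the members' main values and horizontal lines their range over the 3 scalings (not a replicate error). The points of IMA1, IMA2 and both IMA3 isoforms lie to the left of 0 at -0.72, -1.14, -0.78 and -0.62 with their whole lines, and the line of AT1G07373 crosses 0.

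Of 22 listed genes that act around the IMA peptides, 20 entered the count, BTSL1 only through its level in -Fe. The list was drawn up with earlier results of these data known, so its counts in -Fe are a description and not a finding. In -Fe over +Fe, 12 were raised and 3 were lowered, beside 7.51% and 8.43% of all transcripts. In -Fe over Fe resupply, 11 were raised and 3 lowered, beside 9.23% and 7.64%. In Fe resupply over +Fe, 1 was raised, bHLH39, and 0 were lowered, beside 6.81% and 8.64%, so the count was near that of all transcripts. The log2 ratio of bHLH100 in that comparison was 0.32 as deposited, but 1.12 on 1 scale and 1.07 with estimated weights, so bHLH100 joined bHLH39 there. For a gene with several transcripts, the one with the highest level was used. The shares beside the counts of listed genes are over all transcripts, minor isoforms included, so both are in unlike units. No share over genes taken in this way was computed.

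The E3 ligases that bind IMA peptides differed among themselves. BTS stood at 852 CPM in -Fe, 170 CPM in Fe resupply and 208 CPM in +Fe, with a log2 ratio of 2.03 for -Fe over +Fe. BTSL1 stood at 7.95 CPM in -Fe, 0.379 CPM in Fe resupply and 0.837 CPM in +Fe. BTSL2 was low in all conditions, at 1.33 CPM in -Fe, 2.30 CPM in Fe resupply and 1.78 CPM in +Fe. BTS and BTSL1 thus had their highest level in -Fe, as the IMA transcripts did, and BTSL2 did not.

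The IVc factors, whose stability the peptides affect, and bHLH121 of subgroup IVb were raised in 1 of 5 cases in -Fe over +Fe, beside 7.51% of all transcripts, and in 0 of 5 in -Fe over Fe resupply, beside 9.23%. With 5 genes these counts cannot be told apart from those shares. ILR3 stood at 113 CPM in -Fe, 120 CPM in Fe resupply and 115 CPM in +Fe. bHLH34 was the one raised, at 7.96 CPM in -Fe, 4.92 CPM in Fe resupply and 2.56 CPM in +Fe. The other 3, bHLH115, bHLH104 and bHLH121, had log2 ratios of -Fe over +Fe between -0.24 and 0.56.

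Downstream of them, the subgroup Ib factors bHLH38, bHLH39, bHLH100 and bHLH101 were all raised in -Fe over both other conditions. bHLH38 stood at 147 CPM in -Fe, 4.60 CPM in Fe resupply and 6.32 CPM in +Fe, and bHLH100 at 224 CPM in -Fe, 7.86 CPM in Fe resupply and 6.12 CPM in +Fe. bHLH39 stood at 116 CPM in -Fe, 7.44 CPM in Fe resupply and 2.21 CPM in +Fe, so it was still above +Fe after 24 hours. bHLH101 stood at 45.8 CPM in -Fe, 4.14 CPM in Fe resupply and 7.53 CPM in +Fe, and so was below +Fe after resupply, as the IMA transcripts were, under all 3 scalings. For bHLH38 the direction of Fe resupply over +Fe turned with the scaling. PYE, a bHLH repressor of iron genes, stood at 20.7 CPM in -Fe, 5.62 CPM in Fe resupply and 6.83 CPM in +Fe. bHLH11 and FIT did not enter the count, and FIT, the factor of root iron uptake, was listed at 0.

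The 4 genes of transport and nicotianamine synthesis were raised in -Fe over both other conditions. OPT3, a phloem transporter that takes part in shoot-to-root iron signalling, stood at 647 CPM in -Fe, 139 CPM in Fe resupply and 201 CPM in +Fe, and so was below +Fe after resupply as the IMA transcripts were. NAS4, a nicotianamine synthase, stood at 51.7 CPM in -Fe, 8.48 CPM in Fe resupply and 10.9 CPM in +Fe. BTS, BTSL1, bHLH104, PYE and NAS4 were also below +Fe after resupply under all 3 scalings. As deposited, 9 of the 20 listed genes were lower in Fe resupply by any amount, beside 56.3% of all transcripts. For FRO3, a ferric reductase of mitochondria, the isoform AT1G23020.4 had a log2 ratio of -Fe over Fe resupply of 1.05 as deposited and 0.99 on 1 scale, and the summed level of its 7 transcripts had a ratio of 1.93. The iron storage genes went the other way. FER1 stood at 12.8 CPM in -Fe, 156 CPM in Fe resupply and 106 CPM in +Fe, and FER3 and FER4 were lowered in -Fe as well. All 3 ferritins were higher in Fe resupply than in +Fe, by log2 ratios of 0.22 to 0.79, where the IMA transcripts were lower.

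**Figure D4:**
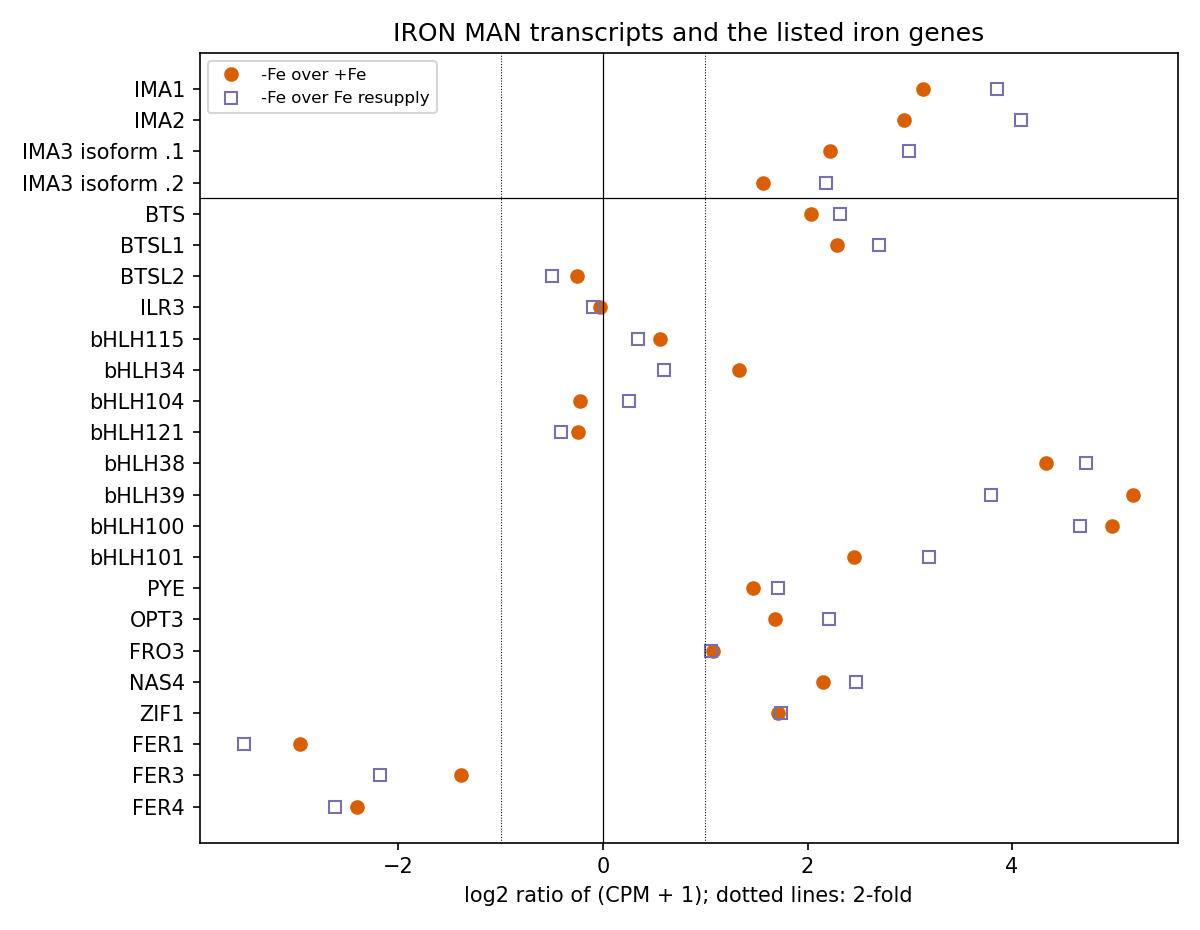
Log2 ratio of (CPM + 1) for the IMA transcripts, above the line, and the 20 listed iron genes that entered the count, below it. Filled circles are -Fe over +Fe, open squares -Fe over Fe resupply, and dotted lines mark 2-fold. For all 4 IMA transcripts the square lies to the right of the circle, as for IMA2 at 4.08 and 2.94, and the ferritins lie to the left of 0.

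Transcripts were ranked by how near their division over the 3 conditions was to that of IMA1, as the distance between the shares of the summed level, over 12272 transcripts with a mean level of at least 10 CPM. With 3 conditions as the only points, this describes likeness of pattern and nothing more. IMA2 was the nearest of all, at a distance of 0.0261, AT1G07373 ranked 17, AT2G30766.1 ranked 26 and AT2G30766.2 ranked 59. AT1G07367 was under the limit of 10 CPM and was not ranked. AT1G07373 and IMA1 itself passed it only through their level in -Fe, and so did the non-members named next, apart from AT4G38970.2. The nearest transcript outside the members was AT3G57260.1 (BGL2, a beta-glucanase of pathogen defence), at a distance of 0.0340 and with 72.0 CPM in -Fe, 3.78 CPM in Fe resupply and 5.04 CPM in +Fe. Next came AT4G02510.4 of TOC159, a receptor of chloroplast protein import, AT3G14420.4 of the glycolate oxidase gene GOX1, AT4G38970.2 of the plastid aldolase gene FBA2, and AT1G13609.1. AT1G13609.1 stood at 88.4 CPM in -Fe, 8.81 CPM in Fe resupply and 7.97 CPM in +Fe.

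For 3 of these 5, the summed level of the gene did not have the pattern of the ranked isoform. Their other isoforms were not examined singly, and how shared reads were divided among isoforms is the estimate of the authors' pipeline. The log2 ratio of -Fe over +Fe was 3.40 for AT4G02510.4 but -0.00089 for the summed level of TOC159. It was 3.65 for AT3G14420.4 but -0.11 for the sum of GOX1, and 3.05 for AT4G38970.2 but 0.32 for the sum of FBA2. The summed level of AT1G13609 kept a ratio of 3.32 and that of BGL2 a ratio of 2.44. The authors assign most iron-regulated reads at the AT1G13609 locus to the opposite strand, to a long noncoding RNA named COS. They found the difference of AT1G13609 itself in FPKM not significant. Which strand the level given here came from was not tested. IMA1, IMA2, AT1G07367 and AT1G07373 have 1 transcript each in the tables, and for IMA3 the summed level had a ratio of 2.09.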

How the data were processed

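Total RNA of shoots was sequenced by the authors as paired-end libraries (NEBNext Ultra II RNA kit). Per the submitters' processing notes and the study's methods, the authors used Trimmomatic 0.36.5, HISAT2 2.1.0 with the TAIR10 genome, StringTie 1.3.3.2 and edgeR 3.20.7.2. Whether the authors gave edgeR read counts or length-scaled values is not given in the sources used here, so each gene's level, or the sum of a marker list, was compared between conditions. Each deposited table holds the authors' average log2 CPM, which was used, and their log2 fold change, F statistic, p-value and FDR, which were not used. The pair of conditions of a table was taken from its name. As the tables hold no values per sample, the design foreseen for that case applied: no test, and levels solved from the averages (-Fe as the sum of its 2 pair levels less the third, and likewise for the others).

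The solving error was checked on transcripts at the lowest value of the table that leaves a condition out, where each of the other tables gives that condition's level: both estimates differed by a median of 1.83% in -Fe (249 transcripts), 0.217% in Fe resupply (245) and 2.09% in +Fe (244). For the members, which are far higher in -Fe, such a difference falls on small levels in the other conditions. As deposited, Fe resupply came out lower and +Fe higher than under the other scalings for every member transcript. AT1G07367 was solved at -0.20 CPM in Fe resupply and 0.20 CPM in +Fe, though it was at the lowest value over both. Of the transcripts past the filter, 16 were solved below -0.5 CPM as deposited, and 0 under the other scalings.

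The members and gene lists were chosen with earlier results of these data known. Genes named are the members, 22 iron genes, the direct neighbours, the 5 non-members nearest to IMA1 in pattern and the tissue markers. AT3G07820 was named after its sequence was seen. Sequences and positions come from RefSeq on TAIR10.1 (gene identifiers matched for all 5 members), read with Biopython 1.88 in Python 3.11.15 with numpy 2.4.6 and pandas 2.3.3. Peptide identity is over a global alignment. Alternatives were the scale of the tables, pseudocounts of 0.5 and 5 CPM, no filter or at least 5 CPM, the lowest value kept, 4-fold, and sums per locus. Estimated weights and the 1.5-fold limit (under each scaling) were added after the data were seen.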

Additional observations from a re-analysis of the deposited data

How the results depend on the processing

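The counts of member transcripts raised in -Fe over +Fe and over Fe resupply stayed within 1.5 times the main value under every alternative run. The members had been chosen for this direction, so these counts could hardly change. The member lowered at least 2-fold in Fe resupply over +Fe, IMA2, was 1 in the main analysis and 0 with the tables on 1 scale, with estimated weights, with a pseudocount of 5 CPM and at 4-fold. Counts over all transcripts depended on low levels and on the fold limit. Those raised in -Fe over +Fe were 1841 in the main analysis, 627 with a pseudocount of 5 CPM, 752 at a mean level of at least 5 CPM, 609 at 4-fold and 442 with levels summed per locus. Those raised in -Fe over Fe resupply were 2263 in the main analysis and, in the same order, 767, 945, 722 and 642. Those changed either way in Fe resupply over +Fe were 3787 in the main analysis and, in the same order, 1216, 1452, 1264 and 730. Of 90 recomputed log2 ratios of single members, 88 kept the sign of the main value, and both exceptions were AT1G07373 in Fe resupply over +Fe, at 0.05 on 1 scale and 0.02 with estimated weights. Much of this was fixed beforehand, because a pseudocount cannot change a sign and the ratios of -Fe follow the choice of members. For AT1G07367 in Fe resupply over +Fe, listed at 0 in both, the sign has no meaning. If read counts were used, levels near 1 CPM rest on about 1 count per library. Such low levels limit what can be said of AT1G07373 and AT1G07367 outside -Fe. No paired analysis was possible because the tables hold averages over the libraries of a pair and no values per sample, and leaving out each replicate in turn was not run for the same reason.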
